A study of Mus musculus with 16 samples.

Results

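The genes described here are the collagens and a set of matrix glycoproteins, 54 mouse genes in all. They comprise 42 collagen chains, taken by the form of their symbol with Col7a1 and Col17a1 left out, and 12 glycoproteins: Postn, Tnc, Fn1, Thbs1, Thbs2, Sparc, Nid1, Nid2, Hspg2, Fbln1, Fbln2 and Ecm1. Of these, 48 were among the 32989 gene identifiers of the count table, and 24 (13 collagens and 11 glycoproteins) reached a mean count of 5 and were tested with 19049 genes in all. Col15a1, Col28a1, Col6a5, Col6a6, Col9a1 and Col9a2 had no row in the table used here.

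RNA was measured in hair follicle stem cell (HFSC) organoids grown for 2 weeks in Matrigel from the telogen skin of 4 C57BL/6J mice, with both sexes used in the study and no age per mouse in the labels. The study gives donor ages as ranges of postnatal days, and the titles of the untreated libraries carry the label WT. Some organoids received 72 h of the acetylated polyamine N1-acetylspermidine (N1-AcSpd), and others were left untreated. Cells released with trypsin were sorted on surface integrin α6 and CD34, with α6+/CD34+ cells taken as HFSCs and α6+/CD34- cells as progenitors, which gave 4 groups: untreated CD34-, untreated CD34+, N1-AcSpd CD34- and N1-AcSpd CD34+. Each mouse gave 1 library to each group, so that 16 libraries of 4 animals were compared, and all cells, controls included, had been through the same organoid culture. Matrigel is itself an extract of basement membrane proteins, and the counts describe the transcripts of the mouse cells, not the matrix around them.

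Collagens and matrix glycoproteins form the scaffold to which epithelial cells attach. Epidermal and follicle keratinocytes rest on a basement membrane built of laminin and collagen IV sheets joined by nidogen and perlecan, whereas fibrillar collagens and much of fibronectin come from dermal fibroblasts. Matricellular proteins such as periostin, tenascin C and thrombospondins are secreted into the matrix and modulate adhesion more than they bear load, and the bulge, the niche of HFSCs, is known to deposit its own basement membrane components.

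A unique molecular identifier (UMI) marks 1 transcript molecule. UMI counts summed over gene models came to 15480075 to 29074855 per library, and most CD34- libraries were deeper than CD34+ ones. Some overlapping gene models had the same counts, as given below, so that a total can exceed the number of molecules. Levels are given as CPM, UMIs per 1e+06 UMIs of the TMM-scaled library total, and a member was called when its Benjamini-Hochberg adjusted p from edgeR's quasi-likelihood test over all 19049 genes was under 0.05. Of 7 keratinocyte markers all 7 were detected, with Krt14 at 4601 to 5717 CPM. Of 6 bulge markers 5, Cd34 as the gene of the sort among them, were higher in CD34+ than in CD34- cells in both conditions, the summed level of the 6 being 62.0 to 90.1 CPM in CD34- and 367.6 to 616.5 CPM in CD34+ libraries. All 5 suprabasal markers were lower in CD34+ cells (summed level 360.7 to 596.8 CPM in CD34- and 136.8 to 174.2 CPM in CD34+ libraries), and their part in the differences below was not tested. In such sorted pools, fewer cells of a type and less RNA per cell cannot be told apart.

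Fibroblast markers, which bear on any collagen transcript, were low. The summed level of 8 of them (Pdgfra, Pdgfrb, Twist2, Prrx1, Dpt, Lum, Dcn and Thy1) was 1.35 to 3.59 CPM in untreated CD34-, 1.08 to 1.54 CPM in untreated CD34+, 1.52 to 2.85 CPM in N1-AcSpd CD34- and 1.17 to 1.77 CPM in N1-AcSpd CD34+ libraries. Prrx1 lay at 0.488 to 1.635 CPM, and Twist2 reached 0.996 CPM and Lum 0.433 CPM. Dcn did not exceed 0.228 CPM, Pdgfra 0.260 CPM or Dpt 0.0866 CPM in any library. None of the 3 fibroblast markers with enough counts was called in either comparison of cell types by edgeR, DESeq2 or with mouse as a block, with 1 at an unadjusted p under 0.05 in untreated cells. All 3 were fitted lower in CD34+ cells in both conditions (median log2 fold change -0.75 untreated and -0.35 with N1-AcSpd), and their part in the collagen values was not tested. Of 4 markers of pericytes and smooth muscle, Rgs5 had no row, Des and Myh11 did not exceed 0.0761 CPM, and Cspg4 was higher in CD34+ cells (log2 fold change 2.59, SE 0.12, adjusted p 1.97e-08 in untreated cells). Of 4 endothelial markers, Cdh5 and Cldn5 had no row, Tek did not exceed 0.274 CPM and Pecam1 was listed at 1687 to 2055 CPM over all libraries, from a source that was not tested, and was called as lower in CD34+ cells (-0.13 untreated and -0.13 with N1-AcSpd, adjusted p 0.00953 and 0.00727). The 5 melanocyte markers summed to 9.39 to 12.6 CPM with no row for Sox10 and none called, and the 5 immune markers to at most 2.09 CPM, with Ptprc at up to 2.03 CPM and no row for Laptm5.

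Fibrillar collagens, the rope-like chains of dermis, tendon and cartilage, were close to undetected at this depth. Of 11 fibrillar chains 10 stayed under the count minimum, with 2 (Col24a1) to 76 (Col2a1) UMIs summed over the 16 libraries. Col1a1, the major chain of collagen I, had 14 UMIs in all and Col3a1 31. Col1a2, its partner chain, was the only fibrillar member tested, with 89 UMIs. Of the collagen VI chains, Col6a1, Col6a2 and Col6a3 had 55, 59 and 57 UMIs, and Col6a4 had 5. The plot of mean counts by class shows how the count minimum divided the members.

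**Figure D1:**
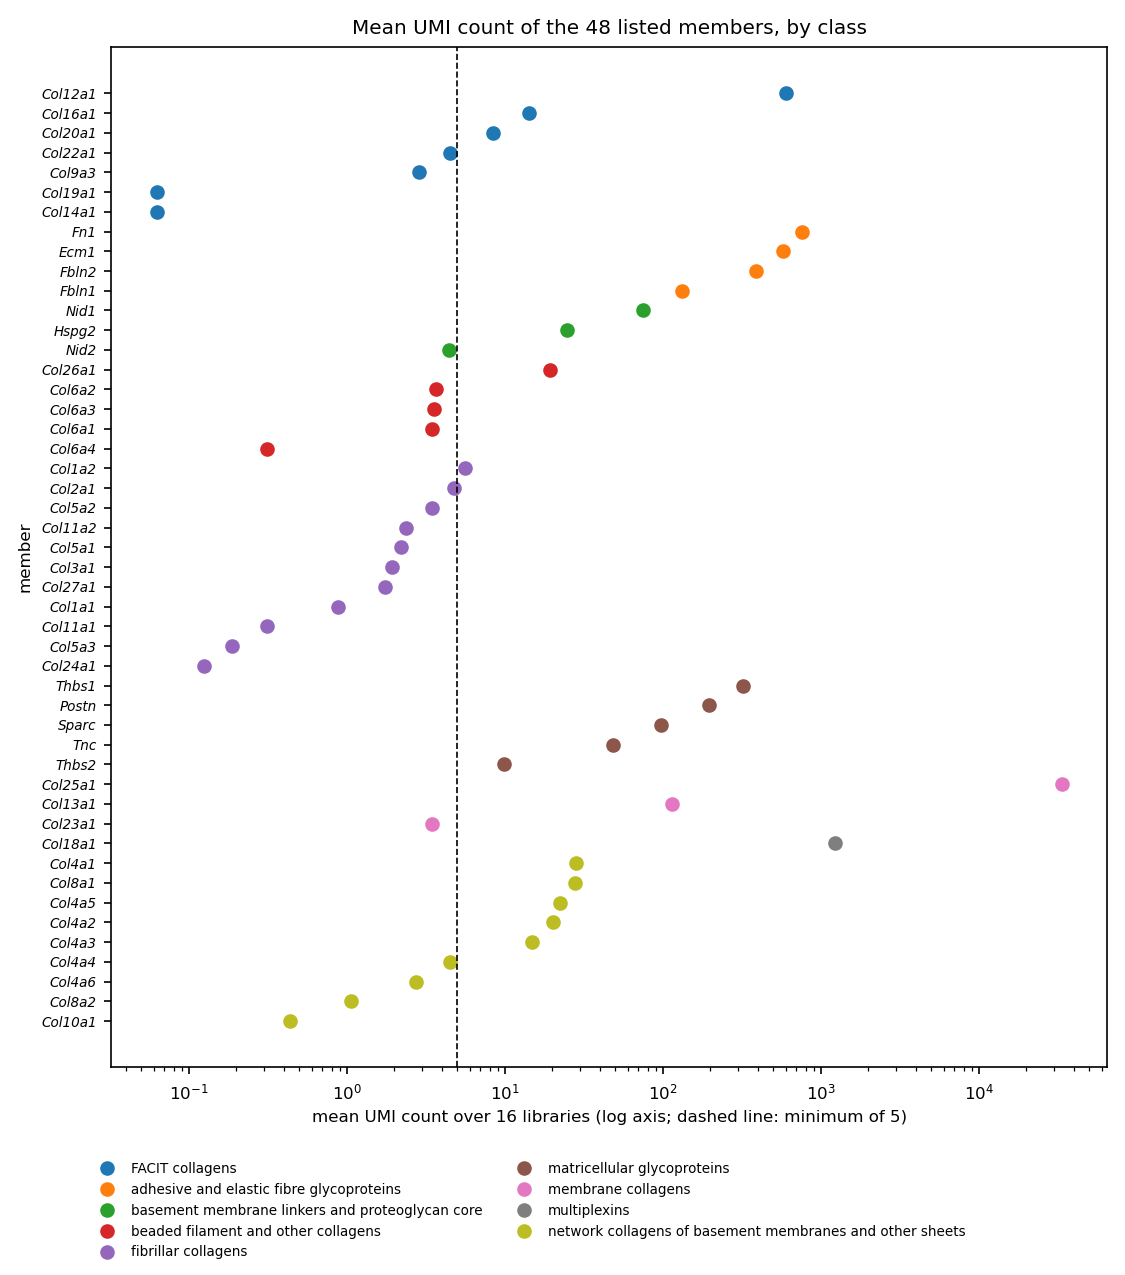
Mean UMI count over the 16 libraries (horizontal, log axis) of the 48 members with a row in the count table (vertical), coloured by class, with the minimum of 5 as a dashed line. Of 11 fibrillar collagens 1 lies right of the line, against 5 of 5 matricellular glycoproteins, 4 of 4 adhesive and elastic fibre glycoproteins and 5 of 9 network collagens.

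The comparison of CD34+ with CD34- cells asked which matrix transcripts differ between HFSCs and progenitors. In untreated organoids the CD34+ cells held more transcripts of the matricellular proteins periostin and thrombospondin 1, of collagen XII and of the collagen IV chains Col4a1, Col4a2 and Col4a5, and fewer of fibronectin, SPARC and tenascin C. Of 24 members tested 15 were called, 9 higher and 6 lower. Over all genes tested 32.1% were called, 16.1% higher and 16.1% lower. In N1-AcSpd organoids 14 of 24 were called, 9 higher and 5 lower, where 33.3% of all genes were called (16.5% higher and 16.8% lower). The median log2 fold change of the tested members was 0.10 against 0.02 for all genes in untreated and 0.16 against -0.01 in N1-AcSpd cells. When libraries were scaled by their totals alone, the all-gene median moved to 0.14 and 0.11, and the member calls became 9 higher and 3 lower in untreated and 11 higher and 3 lower in N1-AcSpd cells. Both comparisons called the same 14 members with the same sign, and Tnc was called in untreated cells without being called in N1-AcSpd cells. When mouse 1 was dropped altogether, the count in untreated cells was 9, where 4667 of all genes were called, beside 6123 with all mice.

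Periostin, a secreted matricellular protein that binds integrins and collagen, had the largest difference of any member in both conditions. Postn (ENSMUSG00000027750, chr3:54361109-54391037 on GRCm38, plus strand) was at 2.15, 2.68, 1.86 and 1.85 CPM in untreated CD34- cells of mice 1 to 4 and at 26.5, 15.7, 24.4 and 21.4 CPM in untreated CD34+ cells. With N1-AcSpd the values were 1.53, 1.35, 1.48 and 1.39 CPM in CD34- and 14.6, 13.3, 16.7 and 18.1 CPM in CD34+ cells. Every CD34+ library lay far above every CD34- library. The group means were 2.14 ± 0.390 and 22.0 ± 4.69 CPM untreated and 1.44 ± 0.0812 and 15.7 ± 2.15 CPM with N1-AcSpd (SD, n = 4). Postn was 10.3-fold higher in untreated CD34+ cells (log2 fold change 3.37, SE 0.17, adjusted p 5.01e-08) and 10.9-fold higher in N1-AcSpd CD34+ cells (log2 fold change 3.44, SE 0.17, adjusted p 2.49e-08), in 4 of 4 mice each time.

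Thrombospondin 1, a trimeric matricellular protein that activates latent TGF-β and restrains angiogenesis, followed. Thbs1 (ENSMUSG00000040152, chr2:118111876-118127133, plus strand) was at 5.51, 5.49, 5.72 and 5.82 CPM in untreated CD34- and at 27.6, 28.1, 23.4 and 38.3 CPM in untreated CD34+ cells. In N1-AcSpd organoids it was at 3.63, 4.79, 2.89 and 4.92 CPM in CD34- and at 20.9, 26.4, 22.0 and 40.8 CPM in CD34+ cells. The untreated CD34- libraries lay close together, while the CD34+ library of mouse 4 was the highest in both conditions, and the 2 cell types did not overlap. The difference was 5.21-fold untreated (log2 fold change 2.38, SE 0.23, adjusted p 3.59e-06) and 6.77-fold with N1-AcSpd (log2 fold change 2.76, SE 0.23, adjusted p 1.27e-06). Its relative Thbs2 was low, from 0.217 to 1.43 CPM over all libraries, and was not called (log2 fold changes -0.94, 95% interval -2.06 to 0.18, and -0.28, -1.38 to 0.83).

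Collagen XII, a fibril-associated collagen (FACIT) that decorates fibrils and bridges them to other matrix, was higher in CD34+ cells too. Col12a1 (ENSMUSG00000032332, chr9:79598991-79718831, minus strand) was at 20.2, 16.2, 16.2 and 17.4 CPM in untreated CD34- and at 48.6, 37.4, 48.7 and 51.6 CPM in untreated CD34+ cells, and at 15.8, 12.9, 12.8 and 15.3 and 40.9, 37.1, 43.7 and 48.6 CPM in the same order with N1-AcSpd. Mouse 2 was the lowest of the CD34+ libraries in both conditions, yet stood above all CD34- libraries. The difference was 2.66-fold (log2 fold change 1.41, SE 0.12, adjusted p 1.38e-06) and 2.99-fold (log2 fold change 1.58, SE 0.12, adjusted p 5.95e-07). The other FACIT members tested, Col16a1 and Col20a1, were not called in either condition.

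Collagen IV is the network collagen of basement membranes. Its 6 chains lie in 3 pairs that are transcribed away from each other, Col4a1 with Col4a2 on chromosome 8, Col4a3 with Col4a4 on chromosome 1 and Col4a5 with Col4a6 on the X chromosome. The annotated first bases of Col4a1 (minus strand) and Col4a2 (plus strand) overlap by 22 bases (chr8:11312805-11312826). Col4a1 was at 0.774, 1.15, 0.823 and 0.496 CPM in untreated CD34- and at 2.62, 2.03, 1.52 and 2.47 CPM in untreated CD34+ cells, and with N1-AcSpd at 0.537, 0.674, 0.875 and 1.03 and 1.56, 1.48, 1.96 and 2.70 CPM. Col4a2 was at 0.473, 0.383, 0.390 and 0.677 CPM in untreated CD34- and at 1.99, 1.65, 1.25 and 1.54 CPM in untreated CD34+ cells, and with N1-AcSpd at 0.578, 0.284, 0.494 and 0.615 and 1.52, 1.08, 1.41 and 1.82 CPM. For both genes every CD34+ library exceeded every CD34- library of its condition. Col4a1 differed 2.67-fold (log2 fold change 1.42, SE 0.29, adjusted p 0.00186) and 2.46-fold (log2 fold change 1.30, SE 0.29, adjusted p 0.00281). Col4a2 differed 3.30-fold (log2 fold change 1.72, SE 0.27, adjusted p 0.000275) and 2.95-fold (log2 fold change 1.56, SE 0.27, adjusted p 0.000453).

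Col4a5, which on the X chromosome encodes the α5 chain of a second collagen IV network, was at 0.602, 0.894, 0.693 and 0.767 CPM in untreated CD34- and at 2.22, 1.81, 1.36 and 2.31 CPM in untreated CD34+ cells. With N1-AcSpd it was at 0.371, 0.781, 0.456 and 0.410 CPM in CD34- and 1.23, 1.37, 0.921 and 1.82 CPM in CD34+ cells, again without overlap within a condition. It differed 2.60-fold (log2 fold change 1.38, SE 0.27, adjusted p 0.00152) and 2.61-fold (log2 fold change 1.39, SE 0.27, adjusted p 0.00134). Col4a3 was not called (log2 fold changes 0.02, 95% interval -0.86 to 0.90, and -0.45, -1.33 to 0.43). Its neighbour Col4a4 stayed under the count minimum, with 4 UMIs in untreated CD34-, 22 in untreated CD34+, 6 in N1-AcSpd CD34- and 40 in N1-AcSpd CD34+ cells, and Col4a6 had 9, 15, 4 and 16 in the same groups. Fitted without the minimum, Col4a4 had a log2 fold change of 2.55 (adjusted p 0.0806) untreated and 3.15 (adjusted p 0.0211) with N1-AcSpd. Col8a1, a short-chain network collagen, was not called (log2 fold changes 0.15 and 0.36).

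**Figure D2:**
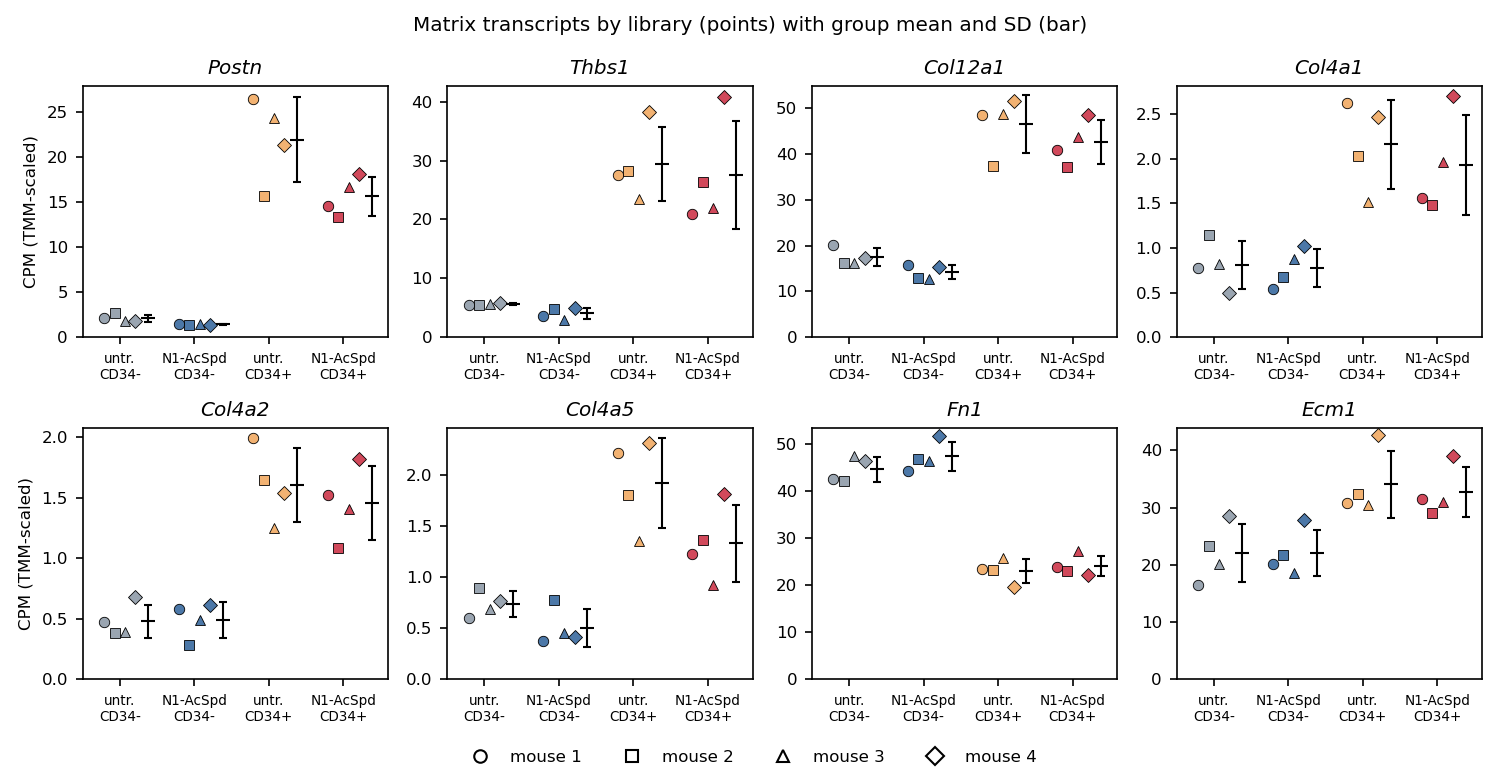
Level in CPM of TMM-scaled totals (vertical axes, from 0) of 8 members in each library, by group (horizontal), with mice as symbols and the group mean ± SD as a bar. Postn, Thbs1, Col12a1, Col4a1, Col4a2, Col4a5 and Ecm1 lie higher and Fn1 lower in each CD34+ group than in the CD34- group of the same condition.

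Fibronectin, the adhesive glycoprotein of provisional matrix that binds integrin α5β1, ran in the opposite direction. Fn1 (ENSMUSG00000026193, chr1:71585520-71653200, minus strand) was at 42.6, 42.2, 47.5 and 46.4 CPM in untreated CD34- and at 23.5, 23.3, 25.8 and 19.6 CPM in untreated CD34+ cells, and with N1-AcSpd at 44.2, 46.9, 46.5 and 51.8 and 24.0, 23.1, 27.2 and 22.1 CPM. All CD34+ libraries lay below all CD34- libraries, 1.94-fold lower by the fit when untreated (log2 fold change -0.95, SE 0.08, adjusted p 1.95e-06) and 1.97-fold lower with N1-AcSpd (log2 fold change -0.98, SE 0.08, adjusted p 1.51e-06). SPARC, a collagen-binding matricellular protein, went from 5.28 ± 0.872 to 3.28 ± 0.919 CPM untreated (log2 fold change -0.68, SE 0.20, adjusted p 0.0174) and from 5.79 ± 0.905 to 3.72 ± 0.448 CPM with N1-AcSpd (log2 fold change -0.64, SE 0.20, adjusted p 0.0221), without overlap of the groups. Tenascin C, a large hexameric matricellular protein, went from 3.29 ± 0.302 to 2.15 ± 0.290 CPM in untreated cells (log2 fold change -0.61, SE 0.20, adjusted p 0.0299). With N1-AcSpd Tnc was at 2.04 ± 0.253 and 1.69 ± 0.569 CPM (log2 fold change -0.27, 95% interval -0.71 to 0.16, adjusted p 0.347). The difference between these 2 differences was 0.34 (SE 0.28, adjusted p 1).

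The fibulins, which link elastic fibres and basement membranes, split. Fbln1 was higher in CD34+ cells, going from 5.04 ± 0.300 to 6.60 ± 1.05 CPM untreated (log2 fold change 0.39, SE 0.11, adjusted p 0.0172) and from 4.78 ± 0.457 to 8.93 ± 0.944 CPM with N1-AcSpd (log2 fold change 0.90, SE 0.11, adjusted p 3.21e-05). Fbln2 was lower, going from 19.4 ± 1.17 to 16.0 ± 1.83 CPM (log2 fold change -0.28, SE 0.09, adjusted p 0.0253) and from 22.2 ± 2.16 to 14.7 ± 1.04 CPM (log2 fold change -0.59, SE 0.09, adjusted p 0.000139). Ecm1, a secreted glycoprotein that binds perlecan and fibulin 1 and is lost in lipoid proteinosis, went from 22.1 ± 5.09 to 34.0 ± 5.77 CPM (log2 fold change 0.62, SE 0.17, adjusted p 0.0135) and from 22.1 ± 4.06 to 32.7 ± 4.38 CPM (log2 fold change 0.56, SE 0.17, adjusted p 0.022). Of the linkers of the basement membrane, Nid1 (nidogen 1, which joins laminin to collagen IV) went from 2.49 ± 0.744 to 4.17 ± 1.05 CPM (log2 fold change 0.74, SE 0.22, adjusted p 0.0176) and from 2.77 ± 0.153 to 5.17 ± 1.01 CPM (log2 fold change 0.90, SE 0.21, adjusted p 0.00496). Hspg2, which encodes the proteoglycan core protein perlecan, was not called (log2 fold changes 0.05, 95% interval -0.44 to 0.55, and 0.56, 0.06 to 1.06). Nid2 stayed under the minimum with 71 UMIs.

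The other collagens moved little or rested on few counts. Col1a2 had 4, 1, 8 and 16 UMIs in untreated CD34- and 1, 2, 1 and 1 in untreated CD34+ cells of mice 1 to 4, and 2, 16, 22 and 8 and 2, 2, 2 and 1 with N1-AcSpd, and the cell types overlapped in both conditions (log2 fold change -2.19, SE 0.75, adjusted p 0.0381, and log2 fold change -2.25, SE 0.71, adjusted p 0.026). In untreated cells the adjusted p of Col1a2 was 0.0503 with mouse as a block, 0.0586 with DESeq2, 0.0653 without the count minimum and 0.0635 with the compared libraries alone. Col1a2 reached the mean count of 5 through its CD34- libraries (77 UMIs, against 12 in CD34+), so that its call as lower is bound up with that minimum. Without it 14 of 23 members were called in untreated (9 higher and 5 lower) and 13 in N1-AcSpd cells (9 higher and 4 lower). Col26a1, a secreted collagen-like protein, was not called (log2 fold change -1.08, adjusted p 0.0513, and -0.88, 0.103), but was called as lower in CD34+ cells with mouse as a block (adjusted p 0.00965 and 0.0234). Col18a1, a multiplexin of basement membranes whose end fragment is endostatin, had a log2 fold change of -0.18 (adjusted p 0.0929, and 0.00619 with mouse as a block) untreated and -0.05 (95% interval -0.22 to 0.11) with N1-AcSpd. The membrane collagen Col25a1, listed at 1417 to 1750 CPM over all libraries, differed little (log2 fold change -0.16, SE 0.04, adjusted p 0.00538, and log2 fold change -0.18, SE 0.04, adjusted p 0.00196), and the membrane collagen Col13a1 was not called (log2 fold changes -0.08 and -0.11). Col16a1 (log2 fold changes 0.51 and 0.86) and Col20a1 (0.40 and -0.18) had wide intervals. Fitted without the count minimum, Col5a2, a minor fibrillar chain with 8 UMIs in untreated CD34- and 27 in untreated CD34+ cells, had a log2 fold change of 1.89 (adjusted p 0.0452) untreated and 1.88 (adjusted p 0.0566) with N1-AcSpd.

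Some of these counts are uncertain because the table gives overlapping gene models nearly the same numbers. Col13a1 and the pseudogene Gm5750, on the opposite strand, had identical counts. For Col25a1 and Gm43210 the absolute differences between the 2 counts summed to 0.20% of the Col25a1 count, for Col4a1 and its antisense model Gm15418 to 6.21%, for Col4a3 and C430014B12Rik to 9.21%, for Col18a1 and Slc19a1 on the opposite strand to 16.7% and for Col20a1 and BX649560.1 to 33.3%. Which model these UMIs came from could not be told from the table. Postn, Fn1, Fbln1, Fbln2, Nid1, Sparc, Thbs1, Tnc, Col1a2 and Col4a5 overlapped no tested gene. Hspg2, Thbs2, Col8a1, Col16a1 and Col26a1, which were not called between cell types without the block, overlapped none either. Leaving aside the members that overlap a tested gene, only the members just named remain, called or not. Of these, 10 were called untreated and 9 with N1-AcSpd, beside 32.1% and 33.3% of all genes.

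**Figure D3:**
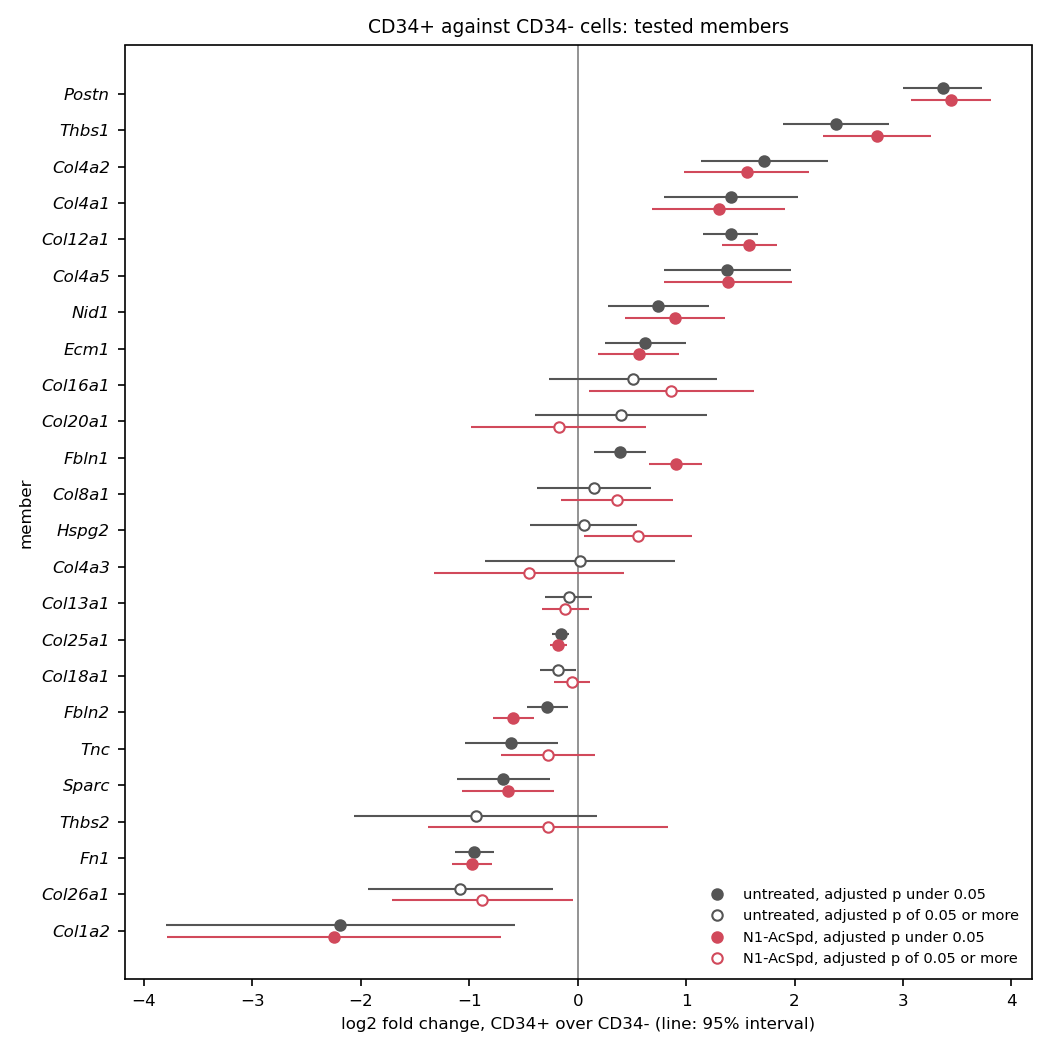
Log2 fold change of CD34+ over CD34- cells (horizontal) for the 24 tested members (vertical), untreated in grey and N1-AcSpd in red, with 95% intervals as lines and filled points for an adjusted p under 0.05. Postn lies at 3.37 and 3.44 and Fn1 at -0.95 and -0.98, and the widest intervals belong to Col1a2, Thbs2 and Col4a3.

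Leaving out single libraries or mice (20 runs, of which Col1a2 could be fitted in 16) did not end the calls of Postn, Thbs1, Col12a1, Col4a1, Col4a2, Col4a5 and Fn1 in either condition, nor those of Fbln1, Fbln2, Nid1 and Col25a1 with N1-AcSpd. Some of these runs left out a library of the other condition, which bears on a comparison only through the shared fit. Other calls were lost in some runs, with the log2 fold change of each run in parentheses. In untreated cells Ecm1 was lost without untreated CD34+ cells of mouse 4 (0.49), or the whole of mouse 1, 2 or 3 (0.55, 0.67 and 0.63). Fbln1 was lost without untreated CD34+ cells of mouse 1 or 3 (0.32 and 0.34), or the whole of mouse 1, 3 or 4 (0.32, 0.37 and 0.40). Fbln2 was lost without untreated CD34- cells of mouse 1 or 4 (-0.26 and -0.26), untreated CD34+ cells of mouse 1 or 2 (-0.24 and -0.23), or the whole of mouse 1 or 2 (-0.21 and -0.23). Nid1 was lost without untreated CD34- cells of mouse 1 or 3 (0.65 and 0.62), untreated CD34+ cells of mouse 2 or 4 (0.66 and 0.61), or the whole of mouse 1 or 2 (0.73 and 0.71). Sparc was lost without untreated CD34- cells of mouse 3 (-0.61), or the whole of mouse 3 or 4 (-0.71 and -0.69). Tnc was lost without untreated CD34- cells of mouse 1 or 3 (-0.62 and -0.55), untreated CD34+ cells of mouse 1, 2 or 3 (-0.53, -0.62 and -0.63), or the whole of mouse 1, 3 or 4 (-0.54, -0.55 and -0.73). Col1a2 was lost without untreated CD34- cells of mouse 3 (-2.17), untreated CD34+ cells of mouse 1, 3 or 4 (-2.12, -2.11 and -2.09), or the whole of mouse 1 or 4 (-2.33 and -1.37), and Col25a1 without the whole of mouse 4 (-0.12). In N1-AcSpd cells the Ecm1 call was lost without N1-AcSpd CD34- cells of mouse 1 or 3 (0.52 and 0.49), N1-AcSpd CD34+ cells of mouse 4 (0.47), or the whole of mouse 1, 2 or 3 (0.54, 0.61 and 0.51). The Sparc call was lost without N1-AcSpd CD34- cells of mouse 3 or 4 (-0.57 and -0.59), N1-AcSpd CD34+ cells of mouse 1 or 3 (-0.57 and -0.59), or the whole of mouse 1, 3 or 4 (-0.63, -0.52 and -0.64), and that of Col1a2 without N1-AcSpd CD34+ cells of mouse 1 or 4 (-2.13 and -2.10), or the whole of mouse 2 or 4 (-2.24 and -2.23). Scaling by library totals alone ended the calls of Col25a1 (-0.04), Fbln2 (-0.16) and Tnc (-0.50) in untreated cells and of Col25a1 (-0.06) and Sparc (-0.52) in N1-AcSpd cells. In untreated cells thinning to the smallest library ended those of Fbln1 (0.28, adjusted p 0.0631) and Tnc (-0.61, 0.0998), and fitting the compared libraries alone those of Nid1 (0.74, 0.0663) and Sparc (-0.68, 0.0631). All these runs were fitted without mouse as a block. With the block and all libraries, the adjusted p untreated and with N1-AcSpd was 0.000163 and 0.000272 for Ecm1 and 0.00105 and 0.000304 for Nid1. For Sparc it was 0.0162 and 0.0246, and for Col1a2 0.0503 and 0.0441. In untreated cells it was 0.00769 for Fbln1, 0.00498 for Fbln2, 0.0184 for Tnc and 0.00538 for Col25a1.

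Upstream sequences were read for the 4 called members outside collagen IV whose RefSeq and GENCODE start sites lie within 10 bases of each other. These were Postn, Ecm1 and Fbln1, higher in CD34+ cells, and Tnc, lower in untreated CD34+ cells. Collagen IV chains were left out because of their shared start regions, and Thbs1, Fn1 and Col12a1 had no matched window. Each run is the 250 bases before the RefSeq start site on GRCm38.p6, written 5′ to 3′ on the gene's strand, with matches to 4 short motifs in capitals, searched on both strands. The motif of the box to which TBP binds was TATAAA. The motif of the AP-1 type was TGANTCA, that of the GC box was GGGCGG and that of the CCAAT box was CCAAT. No 2 matches overlap in these windows. Postn lies at chr3:54360857-54361106 (plus strand), Ecm1 at chr3:95739570-95739819 (minus strand), Fbln1 at chr15:85205699-85205948 (plus strand) and Tnc at chr4:64047016-64047265 (minus strand). The Tnc window also lies in an intron of the gene model 8030451A03Rik on the opposite strand.
Postn: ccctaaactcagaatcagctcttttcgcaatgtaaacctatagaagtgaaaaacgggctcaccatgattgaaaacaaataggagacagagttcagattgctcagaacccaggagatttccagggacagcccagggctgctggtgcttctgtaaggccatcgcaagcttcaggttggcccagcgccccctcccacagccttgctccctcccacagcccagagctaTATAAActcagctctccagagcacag
Ecm1: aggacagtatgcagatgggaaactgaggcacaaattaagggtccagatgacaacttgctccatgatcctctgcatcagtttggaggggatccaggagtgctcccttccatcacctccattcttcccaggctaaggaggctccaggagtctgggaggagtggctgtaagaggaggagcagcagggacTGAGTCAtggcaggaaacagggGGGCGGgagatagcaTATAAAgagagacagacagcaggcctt
Fbln1: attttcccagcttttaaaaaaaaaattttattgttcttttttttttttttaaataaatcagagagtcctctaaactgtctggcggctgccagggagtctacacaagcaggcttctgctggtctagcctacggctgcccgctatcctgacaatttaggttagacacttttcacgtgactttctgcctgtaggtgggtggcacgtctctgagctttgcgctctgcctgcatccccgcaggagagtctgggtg
Tnc: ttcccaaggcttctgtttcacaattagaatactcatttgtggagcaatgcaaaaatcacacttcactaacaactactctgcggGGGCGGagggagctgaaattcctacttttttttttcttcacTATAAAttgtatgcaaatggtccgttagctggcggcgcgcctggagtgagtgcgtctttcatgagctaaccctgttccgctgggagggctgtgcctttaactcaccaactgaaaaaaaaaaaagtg
Postn and Ecm1 each held a TATAAA close to the start and Tnc 1 further upstream, Ecm1 also held a TGANTCA and a GC box, Tnc a GC box, and the Fbln1 window held none of the 4. RefSeq windows were matched for 42 members, 19 of them tested. TATAAA was in 5 of these 19 (26.3%) against 12.4% of all 32851 windows of this length, TGANTCA in 1 (5.26%) against 6.75%, GGGCGG in 12 (63.2%) against 32.7% and CCAAT in 9 (47.4%) against 33.8%. The 32851 windows were not limited to genes that reached the count minimum, so that these shares do not set members against other tested genes. A match is a description of letters and not a measured site.

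The comparison of N1-AcSpd with untreated organoids asked whether the acetylated polyamine changed matrix transcripts within a cell type. In CD34- cells no member was called by edgeR, against 0.614% of all genes, and 6 of 24 had an unadjusted p under 0.05 (13.6% of all genes). DESeq2 called none of the 11 members to which it gave an adjusted p, and gave none to the other 13, Tnc among them. With mouse as a block Col18a1 alone was called (adjusted p 0.0411, log2 fold change -0.20). In CD34+ cells no member was called by edgeR, with or without the block, against 0.325% of all genes without it, and 2 had an unadjusted p under 0.05 (13.2% of all genes). There DESeq2 gave an adjusted p to 7 members, none of them called, and not to Fbln1, Postn, Tnc and 14 others. Averaged over both cell types, 1 member was called, Postn, as lower (4.87% of all genes called, 2.17% as lower), and 6 had an unadjusted p under 0.05 (20.8% of all genes). Fitted values were higher with N1-AcSpd for 12 and lower for 12 of the 24 in CD34- cells, and higher for 9 and lower for 15 in CD34+ cells, with medians of -0.02 and -0.06 against 0.00 and -0.01 for all genes.

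Periostin was lower with N1-AcSpd in both cell types of every mouse. CD34- libraries lay between 1.85 and 2.68 CPM untreated and between 1.35 and 1.53 CPM with N1-AcSpd, without overlap. CD34+ libraries lay between 15.7 and 26.5 CPM untreated and between 13.3 and 18.1 CPM with N1-AcSpd, with overlap. The log2 fold change was -0.56 (SE 0.17, adjusted p 0.148) in CD34- and -0.49 (SE 0.15, adjusted p 0.202) in CD34+ cells, neither past the threshold. Their mean was -0.53 (SE 0.11, adjusted p 0.0204), a level 1.44-fold lower. DESeq2 gave an adjusted p of 0.00587 and the fit with mouse as a block 0.0264. The call was lost without the whole of mouse 1, 3 or 4 (-0.47, -0.55 and -0.59), and with counts thinned to the smallest library (-0.45, adjusted p 0.0602). In the same mean 2 of 5 suprabasal markers were called as higher and 2 of 6 bulge markers as lower, against 4.87% of all genes called. All 5 suprabasal markers were fitted higher, while 4 bulge markers were fitted lower and 2 higher. Suprabasal markers Ivl and Sbsn rose and the bulge marker Krt15 fell (log2 fold changes 0.60, 0.25 and -0.37, adjusted p 0.00505, 0.0346 and 0.0449). Nfatc1 and Cspg4 fell too (-0.20 and -0.64, adjusted p 0.0365 and 0.0016), and the part of these markers in the Postn difference was not tested.

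Tenascin C was next. Tnc was at 3.23, 3.19, 3.72 and 3.02 CPM in untreated and 2.11, 1.67, 2.24 and 2.13 CPM in N1-AcSpd CD34- cells of mice 1 to 4, groups that did not overlap, and at 1.76, 2.19, 2.17 and 2.47 and 1.41, 1.02, 2.21 and 2.11 CPM in CD34+ cells, groups that did. The log2 fold change was -0.69 (SE 0.20, unadjusted p 0.00371, adjusted p 0.131 from edgeR) in CD34- and -0.35 (95% interval -0.79 to 0.09) in CD34+ cells. The mean of both, -0.52, missed the threshold (adjusted p 0.0518), and was past it with DESeq2 (0.011) and with mouse as a block (0.0263). The block also called Col12a1 (-0.21, adjusted p 0.15 without and 0.0427 with it) and Col18a1 (-0.13, 0.175 and 0.0227), so that 4 members were lower in that fit. Over all genes that fit called 1551 in this mean, beside 928 without the block. Dropping the N1-AcSpd library of CD34+ cells of mouse 3, or that of mouse 4, left 2 members called in this mean, and dropping mouse 1, 3 or 4 left 0. In the same order these runs called 576 and 1062, and 175, 216 and 277 of all genes, beside 928 with all libraries.

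Among members with higher values under N1-AcSpd than untreated in CD34+ cells, Fbln1, the fibulin of basement membranes and elastic fibres, had the smallest unadjusted p. It was at 7.57, 5.16, 7.16 and 6.53 CPM untreated and 9.73, 8.26, 9.76 and 7.99 CPM with N1-AcSpd in CD34+ cells, without overlap, and at 5.12, 4.60, 5.28 and 5.14 and 4.50, 4.40, 4.79 and 5.42 CPM in CD34- cells, where the groups overlapped. The log2 fold change was 0.44 (SE 0.11, unadjusted p 0.00169, adjusted p 0.128, edgeR) in CD34+ and -0.08 (95% interval -0.32 to 0.16) in CD34- cells. Fbln2 was at 20.3, 19.4, 17.8 and 20.2 CPM untreated and 21.9, 19.9, 21.7 and 25.1 CPM with N1-AcSpd in CD34- cells (0.19, unadjusted p 0.0458, adjusted p 0.357, edgeR). In CD34+ cells it was at 14.6, 14.4, 16.7 and 18.2 and 14.8, 13.2, 15.1 and 15.6 CPM (-0.12, 95% interval -0.31 to 0.07). The Fbln2 groups overlapped in both cell types, and neither fibulin passed the threshold in either.

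Among the remaining members, Col12a1 and Col18a1 in CD34- cells had unadjusted p of 0.0227 and 0.0228 (edgeR, adjusted p 0.274 and 0.275), with log2 fold changes of -0.30 (95% interval -0.55 to -0.05) and -0.20 (-0.37 to -0.03). The Col12a1 groups did not overlap and those of Col18a1 did. Fn1 in CD34- cells had a log2 fold change of 0.08 (95% interval -0.09 to 0.26), from the per-library values given above. Col8a1 was at 1.02, 1.15, 1.68 and 1.18 CPM in untreated and 1.56, 1.88, 1.96 and 1.06 CPM in N1-AcSpd CD34+ cells (0.36, -0.17 to 0.88). Col20a1, another FACIT chain, was at 0.512, 0.439, 0.596 and 0.617 CPM in untreated and 0.446, 0.171, 0.307 and 0.294 CPM in N1-AcSpd CD34+ cells (-0.80, -1.61 to 0.00), and at 0.645, 0.511, 0.173 and 0.316 and 0.330, 0.319, 0.456 and 0.287 CPM in CD34- cells. The untreated and N1-AcSpd groups of Col8a1 and Col20a1 overlapped. Col4a5 was lower by a similar amount in both cell types (-0.53, -1.13 to 0.06, and -0.53, -1.10 to 0.04), with an adjusted p of 0.125 for the mean. Hspg2, whose groups overlapped, and Thbs1, whose groups did not, had log2 fold changes in CD34- cells of -0.52 (-1.01 to -0.02) and -0.47 (-0.95 to 0.01). For Col4a1 and Col4a2 the intervals in both cell types included 0, from -0.67 to 0.57 and -0.56 to 0.61 in CD34- cells.

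**Figure D4:**
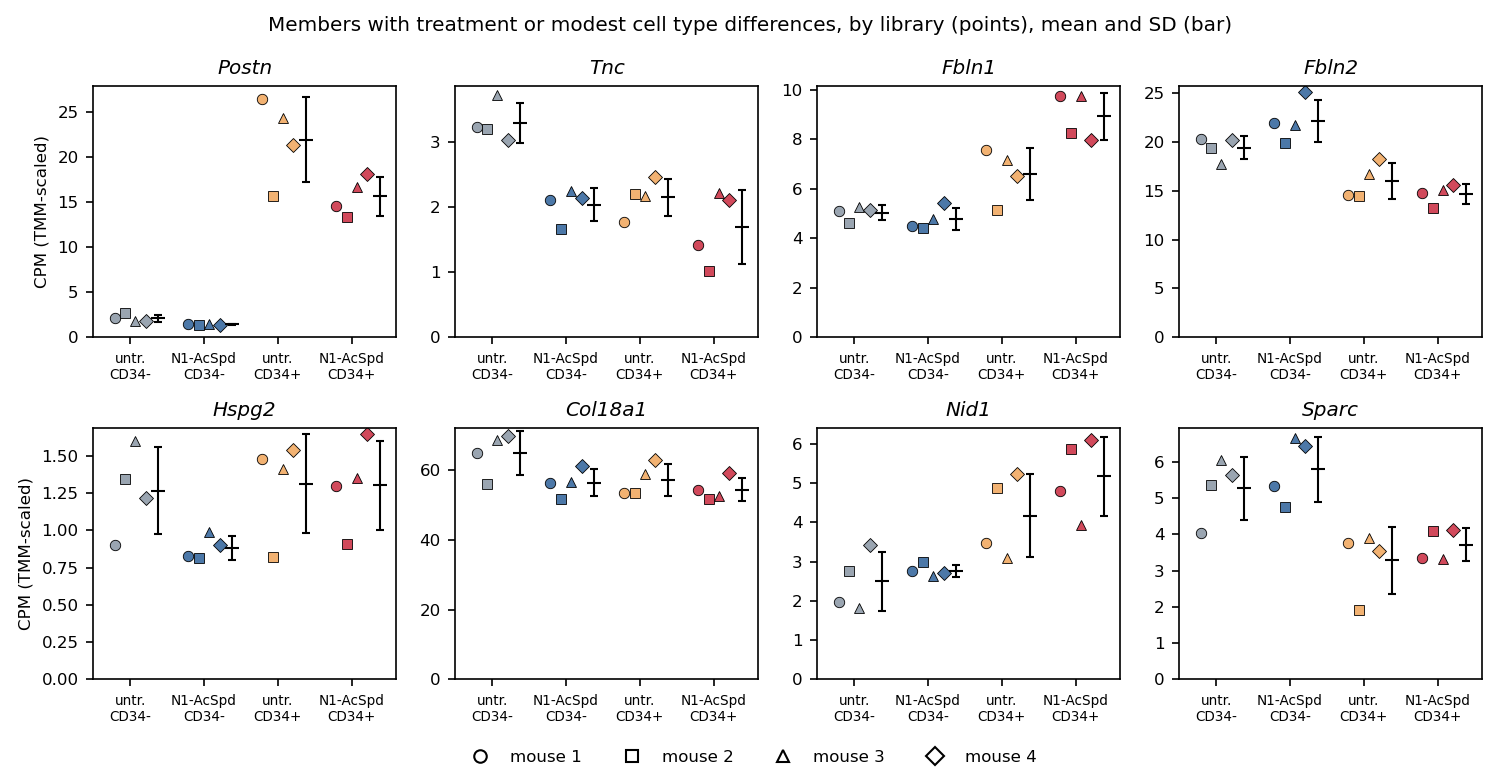
Level in CPM of TMM-scaled totals (vertical axes, from 0) of 8 members in each library, by group (horizontal), with mice as symbols and the group mean ± SD as a bar. Postn and Tnc lie lower with N1-AcSpd in CD34- cells, while Fbln1 lies higher with N1-AcSpd in CD34+ cells.

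The interaction, the difference between the 2 treatment effects, asked whether N1-AcSpd acted unequally in the 2 cell types. No gene and so no member was called by edgeR (0% of 19049), no member was called with the block or among the 23 with a DESeq2 adjusted p, and 2 members had an unadjusted p under 0.05 (4.19% of all genes). These were Fbln1 (0.51, SE 0.16, unadjusted p 0.00617, adjusted p 1 from edgeR) and Fbln2 (-0.31, SE 0.12, unadjusted p 0.0237, adjusted p 1). Fbln1 differed more between cell types with N1-AcSpd and so did Fbln2 in the opposite direction, in 4 of 4 mice each. Next came Hspg2 (0.50, 95% interval -0.20 to 1.21), at 0.903, 1.34, 1.60 and 1.22 CPM in untreated and 0.826, 0.816, 0.989 and 0.903 CPM in N1-AcSpd CD34- cells and at 1.48, 0.823, 1.41 and 1.54 and 1.30, 0.911, 1.35 and 1.64 CPM in CD34+ cells. Col20a1 followed in the other direction (-0.57, -1.71 to 0.56). Both intervals included 0, and the Col20a1 value ran from -0.11 without mouse 3 to -1.19 without mouse 1. For Postn the interaction was 0.07 (-0.40 to 0.55) and for Thbs1 0.38 (-0.29 to 1.04).

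**Figure D5:**
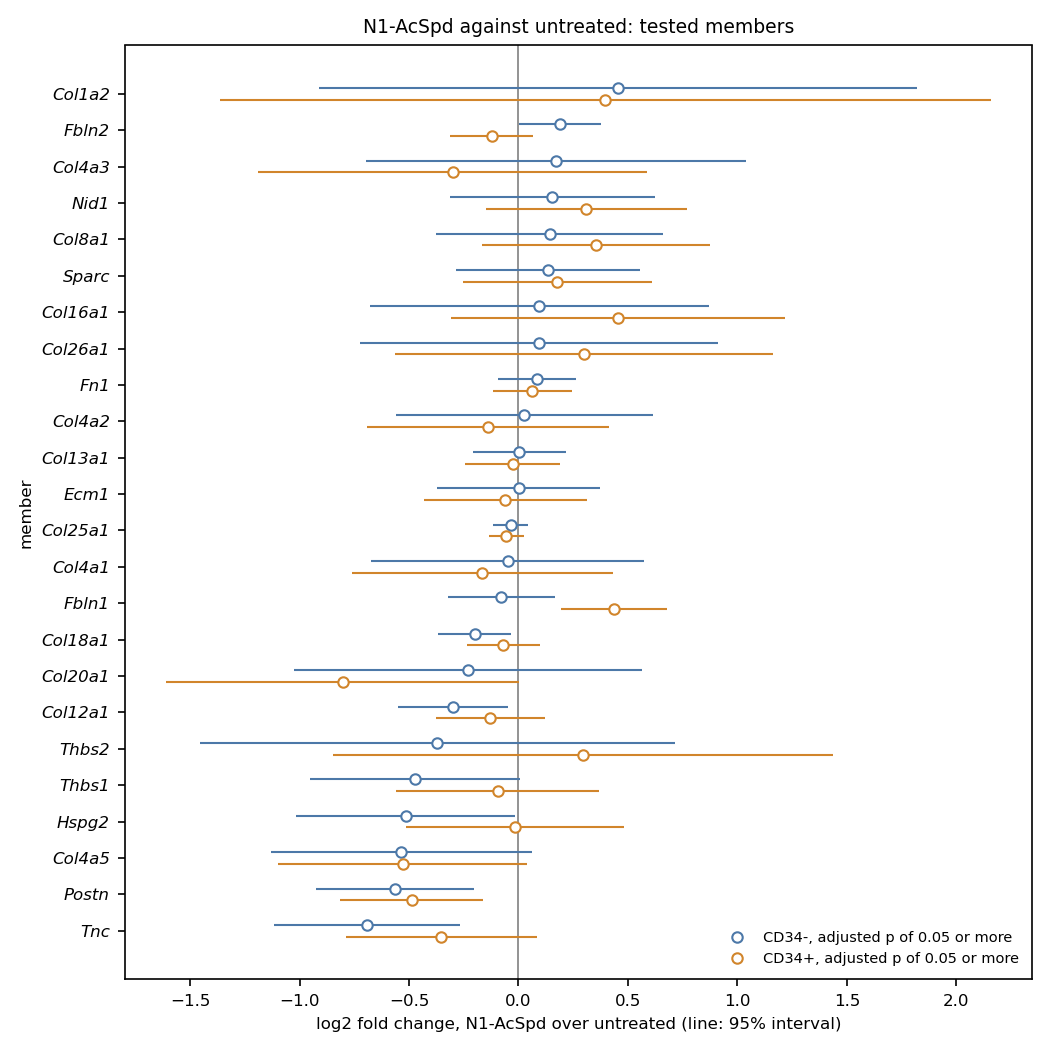
Log2 fold change of N1-AcSpd over untreated (horizontal) for the 24 tested members (vertical), CD34- in blue and CD34+ in orange, with 95% intervals as lines and open points for an adjusted p of 0.05 or more. All points are open; Tnc at -0.69 and Postn at -0.56 lie lowest in CD34- cells, and Fbln1 at 0.44 has an interval above 0 in CD34+ cells.

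Genes that make, modify or join the members were read from the same fit. Of 30 genes of collagen biosynthesis 23 were tested, and 11 were called in untreated cells (8 higher and 3 lower in CD34+) and 10 in N1-AcSpd cells (8 higher and 2 lower), beside 32.1% and 33.3% of all genes. Plod1, a lysyl hydroxylase of procollagen, rose (log2 fold change 1.06, SE 0.10, adjusted p 3.12e-06 untreated) and so did the prolyl 3-hydroxylase P3h1 (0.75, adjusted p 0.00785). Its relative P3h3 (-1.03, 2.46e-06) and the crosslinking enzyme Loxl2 (-0.92, 2.49e-06) fell. All 4 were called with the same sign in N1-AcSpd cells (1.35, 0.69, -0.98 and -0.89). With treatment, Bmp1, which cleaves the ends of procollagens, was the only one of these genes called by edgeR, in the mean of both cell types (log2 fold change -0.28, SE 0.07, adjusted p 0.041). DESeq2 called 2 in this mean and 1 in CD34+ cells, and the fit with mouse as a block called 2 in the mean, Bmp1 and Loxl2.

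Of 18 laminins, netrins and related basement membrane genes 13 were tested, and 8 were called in untreated (6 higher and 2 lower) and 7 in N1-AcSpd cells (6 higher and 1 lower), beside the same 32.1% and 33.3% of all genes. Npnt, which encodes nephronectin, an integrin α8β1 ligand known from the bulge basement membrane, rose (log2 fold change 2.17, SE 0.35, adjusted p 0.00033), as did the laminin chains Lama4 (1.38, adjusted p 0.00747) and Lamb2 (1.09, 6.45e-06). In N1-AcSpd cells the log2 fold changes of these genes were 2.65, 2.06 and 1.01, each past the threshold.

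Of 26 genes of elastic fibres and other matrix 14 were tested, and 8 were called in untreated (6 higher and 2 lower) and 9 in N1-AcSpd cells (7 higher and 2 lower), again beside 32.1% and 33.3% of all genes. Smoc1 and Smoc2, basement membrane proteins related to SPARC, rose (2.22 and 0.89, adjusted p 3.84e-05 and 0.00297 untreated), the direction opposite to that of Sparc itself. Ltbp4, which tethers latent TGF-β to the matrix, rose (1.25, 2e-06), and Spp1, which encodes osteopontin, fell (-1.50, 0.0447). In N1-AcSpd cells the values were 2.46, 1.16, 1.45 and -1.79. In the treatment effects edgeR called no gene of the laminin or elastic fibre lists in either cell type or in their mean. With mouse as a block it called 2 of the laminin list in the mean, Lamb1 and Agrn, and 1 of the elastic fibre list in CD34- cells, Tgfbi, named here after their values were seen. Of the laminin list DESeq2 called 2 in CD34- cells and 1 in the mean, and the unadjusted p was under 0.05 for 2 genes in CD34-, 1 in CD34+ cells and 3 in the mean. Of the elastic fibre list DESeq2 called 0, and the same numbers were 2, 1 and 4. Over all genes these shares were 13.6%, 13.2% and 20.8%. DESeq2 gave no adjusted p to 8, 9 and 3 of the 13 laminin list genes and to 8, 10 and 2 of the 14 elastic fibre genes.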

How the data were processed

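The authors separated reads by barcode with FLEXBAR, placed second reads on mm10 with kallisto (0.45.0), assigned them to genes with BEDTools and counted unique UMIs per gene in R. Versions come from the submitters' processing notes, and the annotation release is not given in the sources used here. The deposited values are these raw counts per gene, 1 column per library, with no normalization. Empty cells (156050) were read as 0. GENCODE vM21, on the same assembly (GRCm38), gave symbols and positions, and 0.116% of counts fell on 62 identifiers that it does not name.

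The test was edgeR's quasi-likelihood test (4.0.16, R 4.3.3, two-sided, TMM) in 1 fit of 16 libraries, over genes whose mean count reached 5, and each SE is the size of the log2 fold change over the root of F. DESeq2 1.42.0 was an alternative. The 6 results were the cell type effect in each condition, the treatment effect in each cell type, their mean and the interaction. Groups came from the labels. Same-numbered libraries come from the same mouse by the labels. Deviations of such libraries from their group means had a mean r of 0.0285 (24 pairs, -0.0988 to 0.139), and a fit with mouse as a replicate block was an alternative. These r were taken over all tested genes and do not show how far single members varied with the mouse. The procedure was tested on data simulated without a mouse effect, so that this test does not cover the pairing of libraries.

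Every tested member is named. Values per library are given for members with a mean count of at least 20 called between cell types with an absolute log2 fold change of at least 1, for members called in a treatment effect or interaction and, without a call, for the 2 smallest p in each direction. Col1a2, Ecm1 and Nid1, and further members in the plots, were added after their values were seen. Of the other lists up to 4 called genes with the largest change are named, and 1 such gene is not reported here. Members and lists were chosen with earlier results of these data known. Upstream sequences are RefSeq's on GRCm38.p6.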

Additional observations from a re-analysis of the deposited data

Results flagged for a closer look

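In 99 groups of 4 libraries in which a member had at least 10 UMIs in 1 library, 4 had a library set apart from the other 3 by more than Dixon's 95% critical value of the gap over the range. Chance alone flags about 1 in 20 groups, but the minimum of 10 UMIs can be reached through the high library itself, so that the 2 rates cannot be compared. Col22a1 reached it only through its 35 and 27 UMIs in mouse 2, and Col6a1 through its 12 UMIs in mouse 3. Col22a1, a FACIT collagen of tissue junctions, was at 1.24 CPM in N1-AcSpd CD34- cells of mouse 2 and at 1.54 CPM in its N1-AcSpd CD34+ cells, against at most 0.0413 and 0.0743 CPM in the other mice. Its untreated libraries did not exceed 0.108 CPM. Col6a1 was at 0.520 CPM in the untreated CD34- library of mouse 3, against 0.0903 to 0.129 CPM in the others. Ecm1 was at 42.6 CPM in the untreated CD34+ library of mouse 4, against 30.4 to 32.4 CPM, and its call in untreated cells was lost without that library (log2 fold change 0.49). The causes were not tested.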

How the results depend on the processing

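In both cell type effects the counts of called members stayed within 1.5 times of 15 and 14 under other scalings, filters, tools, thinning and the replicate block (16 and 15), except that 9 were called in N1-AcSpd cells when members overlapping a tested gene were left out, since fewer members were counted. Leaving out 1 library or mouse gave 9 to 16 called members in untreated and 11 to 15 in N1-AcSpd cells. In the treatment effects these runs gave 0 to 0 in each cell type, 0 to 2 in their mean and 0 to 0 in the interaction. With the replicate block 1 member was called in CD34- cells and 4 in the mean, where DESeq2 called 2, filterByExpr 2 and thinning 0. Over all genes the block called 351 in CD34- cells, beside 117 without it. In the mean these 4 fits called 1551, 1546, 980 and 610 of all genes, beside 928 without these changes. The cause was not tested. Among the members the replicate block changed no other call than those given in the report. In the other matrix lists it raised counts of calls between cell types from 11 to 12 and 10 to 13 (biosynthesis), 7 to 9 (laminins, N1-AcSpd) and 8 to 10 and 9 to 10 (elastic fibres). No named member changed sign where it was called. For the named members, leaving out libraries kept the side of the threshold in 773 runs and lost it in 59, and other alternatives in 308 and 14. These totals include members named in the treatment effects and the interaction without a call. Such members had no call to lose, so that the totals do not measure how well the calls held. Depth limits the 24 members under the minimum and those with wide intervals, and a missed threshold there does not show equal levels. Intervals and counts cover these 4 mice in culture.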

Other observations

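Some members had a like order of mice in several groups. Ecm1 was highest in mouse 4 in all 4 groups (28.5, 42.6, 27.9 and 39.1 CPM in untreated CD34-, untreated CD34+, N1-AcSpd CD34- and N1-AcSpd CD34+ cells). Nid1 in untreated CD34+ cells of mice 1 to 4 was at 3.47, 4.88, 3.09 and 5.24 CPM. In N1-AcSpd CD34+ cells it was at 4.79, 5.86, 3.93 and 6.11 CPM, with mice 2 and 4 above mice 1 and 3 in both. Untreated CD34- cells had the same order (1.98, 2.75, 1.82 and 3.43 CPM). N1-AcSpd CD34- cells did not show it (2.77, 2.98, 2.62 and 2.71 CPM). These orders were noticed in the data and rest on 4 animals.

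Hspg2 libraries of N1-AcSpd CD34- cells lay within 0.816 to 0.989 CPM, against 0.903 to 1.60 CPM when untreated, and Postn libraries within 1.35 to 1.53 against 1.85 to 2.68 CPM. Whether the spread differed was not tested.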
